A study of Rattus norvegicus with 24 samples.

Results

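Mitochondria make ATP by passing electrons from NADH and succinate down a chain of membrane complexes to oxygen and by using the resulting proton gradient to drive ATP synthase. Complex I (NADH dehydrogenase) and complex II (succinate dehydrogenase) feed electrons in, complex III (cytochrome bc1) and complex IV (cytochrome c oxidase) pass them on, and complex V is the ATP synthase. Most subunits are encoded in the nucleus, and several subunits of complex IV exist as isoforms used in different tissues, among them forms known from testis, heart and skeletal muscle, and lung. Male germ cells are known to change the shape and number of their mitochondria, and several mitochondrial isoforms, as they pass from meiosis to the haploid stage. The genes described here are the nuclear genes for these subunits and for the NDUFAF assembly factors of complex I, chosen by their symbols (Nduf, Uqcr, Cox4 to Cox8, Atp5, Sdha to Sdhd and Cyc1). They comprised 87 of the 14217 genes measured by a probe set with 1 symbol, and where a gene had several such probe sets the one with the highest mean stood for it, from 97 in all. Of the 87 genes, 34 encode complex I, 6 its assembly factors, 4 complex II, 8 complex III, 19 complex IV and 16 complex V. Ndufa4 and Ndufa4l2 are counted with complex IV, to which NDUFA4 belongs, and Cox6c-ps1 is a pseudogene entry counted there as well. A further 12 probe sets name such a gene among several and were left out, so the cytochrome c genes Cycs and Cyct have no value here.

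RNA was measured on 24 Affymetrix arrays in 4 groups of 6 Brown Norway rats, namely round spermatids of aged (18 months) and young (4 months) rats and pachytene spermatocytes of aged and young rats. Pachytene spermatocytes are germ cells in meiotic prophase, and meiosis turns them into round spermatids, which are haploid and have yet to elongate. Each of 12 rats gave both fractions, which were enriched by sedimentation to a stated purity above 83%, so a fraction also holds other testis cells, and in such a bulk sample fewer cells of a type and less RNA per cell cannot be told apart. Levels are log2 signals, and a change is a difference of log2 means (a change of 1 is a 2-fold difference), tested with limma and called at a Benjamini-Hochberg adjusted p below 0.05 over 31042 probe sets.

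The labelled cell types were borne out by most of their markers. Round spermatids were higher in 7 of 7 measured round spermatid markers and 10 of 10 markers of late spermiogenesis. They were lower in 7 of 8 pachytene markers and higher in 1. Of all genes, 49.2% were called higher and 39.1% lower. The fractions of both ages also carried RNA of other cells. Of 10 Sertoli cell markers measured, 8 were lower in aged pachytene spermatocytes and 7 in aged round spermatids. Their mean level per array spanned 9.786 to 10.17 in aged and 10.67 to 11.4 in young pachytene spermatocytes, and 8.098 to 8.535 in aged and 8.631 to 9.241 in young round spermatids. All 10 late spermiogenesis markers were lower in aged pachytene spermatocytes as well, with array means of 12.79 to 13.37 in aged and 13.25 to 14.44 in young rats. Of 5 measured spermatogonia markers 2 were lower in aged pachytene spermatocytes, with array means of 7.38 to 7.684 in aged and 7.768 to 8.449 in young rats, and 3 were lower in aged round spermatids, with 8.535 to 8.665 in aged and 8.701 to 9.148 in young rats. Of 8 pachytene markers 3 were higher in aged round spermatids, with array means of 10.8 to 11.01 in aged and 10.45 to 10.82 in young rats, and 2 were higher and 1 lower in aged pachytene spermatocytes. Of 7 round spermatid markers 1 was higher and 3 were lower in aged pachytene spermatocytes, and 1 was higher and 1 lower in aged round spermatids. In aged round spermatids 2 late spermiogenesis markers were lower. Of 7 Leydig cell markers 2 were lower in aged pachytene spermatocytes and 1 in aged round spermatids, and of 7 macrophage markers 1 was higher in aged pachytene spermatocytes. The part of these markers in the age results below was not tested. The median array signal spanned 7.668 to 7.863 in aged and 7.556 to 7.705 in young round spermatids, and 6.618 to 6.922 in aged and 7.015 to 7.38 in young pachytene spermatocytes. The absent bacterial control Trp averaged 6.833 in round spermatid arrays and 4.282 in pachytene arrays, so low signals were treated differently in the 2 cell types, and comparisons between cell types were made after an offset on the pachytene values. Within 1 log2 unit of the highest Trp control lay Cox4i2, Cox6c-ps1, Cox7a1, Cox8b and Ndufaf4 in round spermatids of both ages and Cox8b in aged pachytene spermatocytes, and changes of these dim genes are less certain.

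Promoters of respiratory chain genes are known targets of the factors NRF1, GABP (an ETS factor), YY1 and CREB. RefSeq promoters (assembly GRCr8, 250 bases before to 50 after the start of the gene) were matched for 78 of the 87 genes. The NRF1 core GCGCANGCG was found on either strand in 19 of them (24.4%), against 11.2% of 11733 promoters of measured genes and 6.26% of all 27457 promoters. The ETS and GABP core CCGGAAG was present in 22 (28.2%), against 15.1% of measured and 9.22% of all promoters. The YY1 core AAGATGGCG occurred in 11 (14.1%), against 3.14% and 1.93%, and the CREB motif TGACGTCA in 3 (3.85%), against 2.86% and 1.91%. The first 3 motifs were thus more frequent in these promoters than in those of measured genes, and the CREB motif was near the background share. No motif overlapped another in the promoters shown. The 250 bases before the start follow, 5′ to 3′ on the strand of the gene, for Ndufa5, a complex I subunit that was higher in round spermatids and lower with age in both cell types, for Sdha and Uqcrc2, which were among the genes furthest below pachytene levels, and for Cox8a, which differed most with age in pachytene spermatocytes. Capitals mark every match to the 4 motifs on either strand. The stretches are chr4:53971236-53971485 (minus strand), chr1:30764303-30764552 (plus), chr1:184598990-184599239 (plus) and chr1:213833624-213833873 (minus).
Ndufa5: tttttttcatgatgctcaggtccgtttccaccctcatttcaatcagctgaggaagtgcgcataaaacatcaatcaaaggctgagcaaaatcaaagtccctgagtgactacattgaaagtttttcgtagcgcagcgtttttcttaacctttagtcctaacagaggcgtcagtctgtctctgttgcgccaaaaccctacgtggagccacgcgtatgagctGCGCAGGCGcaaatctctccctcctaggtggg
Sdha: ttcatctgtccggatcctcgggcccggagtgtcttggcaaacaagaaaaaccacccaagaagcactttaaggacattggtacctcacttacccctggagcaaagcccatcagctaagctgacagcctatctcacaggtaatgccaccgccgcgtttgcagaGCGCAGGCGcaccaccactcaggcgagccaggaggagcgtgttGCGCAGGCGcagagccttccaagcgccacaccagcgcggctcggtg
Uqcrc2: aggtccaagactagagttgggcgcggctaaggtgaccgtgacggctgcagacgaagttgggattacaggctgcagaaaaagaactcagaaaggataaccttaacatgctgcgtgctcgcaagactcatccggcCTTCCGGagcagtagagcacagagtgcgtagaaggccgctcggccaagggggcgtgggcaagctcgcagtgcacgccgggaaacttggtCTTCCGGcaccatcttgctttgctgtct
Cox8a: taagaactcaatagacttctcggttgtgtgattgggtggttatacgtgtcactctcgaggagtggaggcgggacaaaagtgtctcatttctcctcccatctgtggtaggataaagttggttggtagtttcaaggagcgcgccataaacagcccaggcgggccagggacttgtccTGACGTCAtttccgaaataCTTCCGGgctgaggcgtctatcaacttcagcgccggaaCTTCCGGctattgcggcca
Ndufa5 and Sdha hold the NRF1 core near the start, Uqcrc2 holds the ETS core on the opposite strand, and Cox8a holds the ETS core and a CREB motif. The NRF1, ETS and YY1 cores were found in promoters of genes that changed in opposite directions between the cell types. The NRF1 core lay in 4 of 16 promoters of genes higher in round spermatids and in 14 of 56 of genes lower there, and the ETS core in 5 of 16 and 17 of 56. The YY1 core lay in 1 of 16 and 10 of 56, and the CREB motif in 0 of 16 and 3 of 56.

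Round spermatids had lower levels of most respiratory chain and ATP synthase genes than pachytene spermatocytes. Of the 87 genes, 64 were lower and 17 were higher in round spermatids, while 39.1% of all 14217 genes were called lower and 49.2% higher. The median change of the 87 genes was -0.53, against 0.055 for all genes. Markers of other cells differed between the fractions too. Of 10 Sertoli cell markers 8 were lower and 2 higher in round spermatids, with array means of 8.228 to 8.704 in aged and 8.807 to 9.396 in young round spermatids, against 10 to 10.36 in aged and 10.85 to 11.51 in young pachytene spermatocytes. All 7 macrophage markers were higher, with 8.055 to 8.838 in aged and 8.073 to 8.686 in young round spermatids, against 7.491 to 7.539 in aged and 7.433 to 7.57 in young pachytene spermatocytes. Of 5 spermatogonia markers 3 were higher and 1 lower, with 8.661 to 8.779 in aged and 8.819 to 9.255 in young round spermatids, against 7.995 to 8.155 in aged and 8.211 to 8.725 in young pachytene spermatocytes, and of 7 Leydig cell markers 1 was higher and 4 were lower. The part of these markers in the differences between cell types was not tested. The decrease of the respiratory chain genes ran through complexes I (28 of 34 lower, median -0.57), II (3 of 4, -0.64), III (7 of 8, -0.55) and V (13 of 16, -0.59). Complex IV was mixed, with 11 of 19 genes lower and 7 higher (median -0.38), and of the 6 complex I assembly factors 3 were higher and 2 lower (median 0.22). The calls of 61 of the 64 lower genes and of 13 of the 17 higher genes held under 4 scalings of the arrays, which were quantile normalization, median centring, the deposited scale and centring on hybridization controls. The same 61 and 13 held without young rats 1, 10 and 11, whose pachytene arrays had medians of 7.148 to 7.38, against 7.015 to 7.075 in the other 3 young rats.

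**Figure D1:**
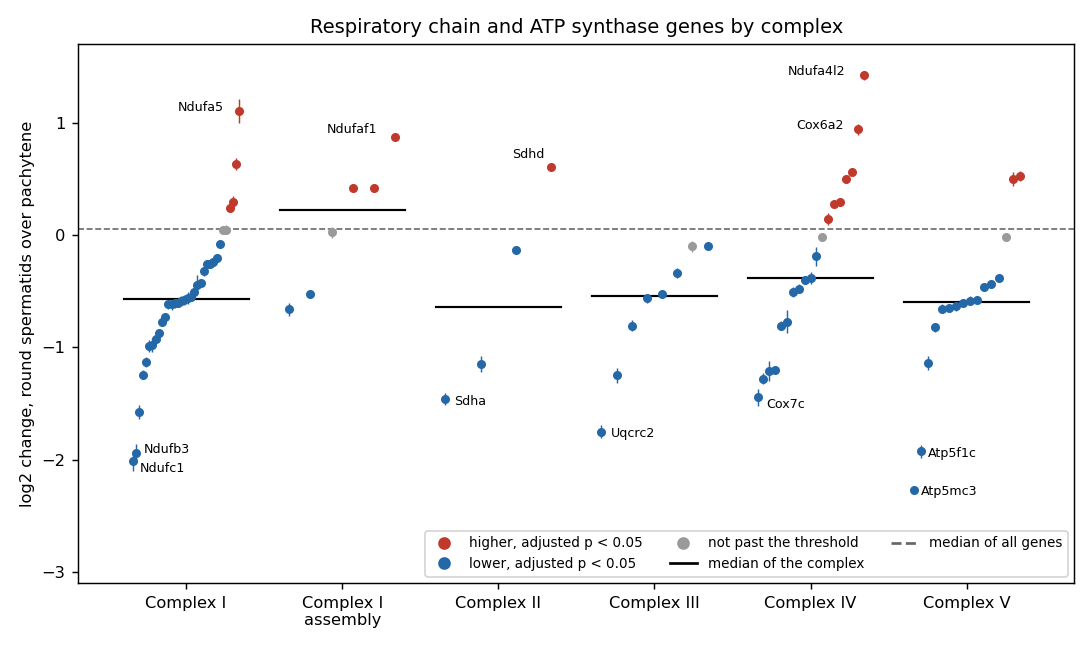
Change of the 87 genes between the cell types (y axis, log2 level in round spermatids minus that in pachytene spermatocytes, all 24 arrays, bars are SE), ordered by size within each complex. Black lines are medians of a complex and the dashed line is the median of all genes; complexes I, II, III and V lie mostly below 0, and complex IV spreads from -1.45 (Cox7c) to 1.42 (Ndufa4l2).

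The furthest below were subunits of ATP synthase and of the membrane arm of complex I. Atp5mc3 encodes the c subunit of the rotor ring that protons turn. Its lowest, median and highest levels were 10.95, 11.03 and 11.12 in aged and 11.03, 11.14 and 11.39 in young round spermatids, against 13.13, 13.26 and 13.34 in aged and 13.33, 13.47 and 13.66 in young pachytene spermatocytes. Every round spermatid array lay below every pachytene array, with a change of -2.27 ± 0.040 (SE), 4.82-fold (adjusted p = 2.53e-22). Atp5f1c, the gamma subunit of the central stalk, had 12.03, 12.12 and 12.31 in aged and 11.83, 11.92 and 12.08 in young round spermatids, against 14.05, 14.09 and 14.1 in aged and 13.39, 13.96 and 14.07 in young pachytene spermatocytes. These groups did not overlap either (change -1.92 ± 0.057, 3.79-fold, adjusted p = 7.55e-19).

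Ndufc1, an accessory subunit of complex I, lay at 10.22, 10.4 and 10.45 in aged and 10.07, 10.3 and 10.5 in young round spermatids, against 12.3, 12.43 and 12.56 in aged and 11.58, 12.46 and 12.58 in young pachytene spermatocytes (change -2.01 ± 0.085, 4.04-fold, adjusted p = 3.51e-16). Ndufb3, another accessory subunit, lay at 9.655, 9.713 and 9.824 in aged and 9.363, 9.535 and 10.07 in young round spermatids, against 11.65, 11.75 and 11.84 in aged and 11.09, 11.58 and 11.72 in young pachytene spermatocytes (-1.94 ± 0.079, 3.85-fold, adjusted p = 1.85e-16). For both genes the cell types were fully separated. Uqcrc2, a core protein of complex III, had 10.53, 10.58 and 10.73 in aged and 10.28, 10.43 and 10.58 in young round spermatids, against 12.24, 12.33 and 12.44 in aged and 11.77, 12.29 and 12.43 in young pachytene spermatocytes. Its change was -1.75 ± 0.059 (3.37-fold, adjusted p = 6.13e-18), and a second, dimmer probe set gave -1.004 ± 0.047. Next came Ndufb8 (-1.57), Sdha, the flavoprotein that oxidises succinate (-1.46), the small complex IV subunits Cox7c (-1.45) and Cox6c (-1.28), and Cyc1, which encodes cytochrome c1 (-1.25).

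The genes that were higher in round spermatids came from 5 of the 6 classes and none from complex III. Ndufa4l2 is a paralogue of the complex IV subunit gene Ndufa4 and is known to be induced by low oxygen. Its levels were 9.669, 9.692 and 9.741 in aged and 9.715, 9.821 and 10.08 in young round spermatids, against 8.296, 8.399 and 8.475 in aged and 8.2, 8.254 and 8.523 in young pachytene spermatocytes. Every round spermatid array was above every pachytene array (1.42 ± 0.038, 2.68-fold, adjusted p = 1.32e-19). Ndufa5, an accessory subunit of the matrix arm of complex I, had 11.66, 11.93 and 12 in aged and 12.08, 12.35 and 12.57 in young round spermatids, against 10.44, 10.57 and 10.93 in aged and 10.94, 11.35 and 12.04 in young pachytene spermatocytes. The top of the young pachytene range overlapped that of round spermatids, although 12 of 12 rats were higher in round spermatids (change 1.10 ± 0.11, 2.15-fold, adjusted p = 1.38e-09). Ndufa5 thus moved against most of its complex.

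Cox6a2, the heart and muscle isoform of subunit VIa of complex IV, had 8.252, 8.322 and 8.503 in aged and 8.471, 8.605 and 8.993 in young round spermatids, against 7.419, 7.536 and 7.657 in aged and 7.498, 7.556 and 7.702 in young pachytene spermatocytes (0.94 ± 0.046, 1.92-fold, adjusted p = 4.94e-15). The groups were separate. Ndufaf1, an assembly factor of the membrane arm of complex I, had 9.689, 9.718 and 9.772 in aged and 9.597, 9.824 and 9.856 in young round spermatids, against 8.918, 8.971 and 8.99 in aged and 8.721, 8.797 and 8.873 in young pachytene spermatocytes (0.88 ± 0.025, 1.84-fold, adjusted p = 3.73e-19). Ndufb11, an X-linked membrane arm subunit, lay at 10.92, 10.95 and 11.04 in aged and 11.05, 11.14 and 11.3 in young round spermatids, against 9.985, 10.1 and 10.35 in aged and 10.5, 10.66 and 11 in young pachytene spermatocytes (0.63 ± 0.050, adjusted p = 4.22e-11). For Ndufb11 the top of the young pachytene range reached that of round spermatids, and for Ndufaf1 the cell types were apart.

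Smaller increases were called for Sdhd, a membrane anchor of complex II (0.61), Cox7a1, a heart and muscle isoform (0.56), the small ATP synthase proteins Atp5mpl (0.53) and Atp5mk (0.50), and Cox4i2 (0.50). On the deposited scale after the offset the changes of Ndufaf1, Ndufb11 and Sdhd were 0.30, 0.25 and 0.27, and without the offset those of the dim Cox7a1 and Cox4i2 were 0.87 and 0.84. The probe sets of a gene disagreed for Sdhd, whose other probe set gave -0.073 (adjusted p = 0.0471), and for Ndufaf7 (0.42 against -0.40), and dim second probe sets of Atp5po (0.27) and Ndufv3 (0.19) ran against the chosen ones. Nearest the threshold lay Cox5a (-0.19, adjusted p = 0.0434), with 3 of 12 rats higher and 9 lower in round spermatids, and Ndufa7, which was not called (0.047, adjusted p = 0.0503). Uqcrfs1, the Rieske iron-sulphur protein of complex III, Cox6b2, Atp5if1, the inhibitor of ATP synthase, Ndufaf5 and Ndufs3 were not called either.

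The tissue isoforms of complex IV shifted relative to their common partners. For 6 pairs of isoforms, the change within each rat from its pachytene spermatocytes to its round spermatids was compared between both members of the pair. These are differences of changes, and no probe set's level is set against another's. All 6 pairs differed, with the smallest p that an exact sign-flip test over 12 rats can give (two-sided, 0.000488, and the same after adjustment over 6 pairs). In 5 pairs the isoform known from particular tissues or conditions gained on its common partner in 12 of 12 rats.

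Ndufa4l2 gained 1.42 ± 0.19 (SD over 12 rats) while Ndufa4 changed by -1.21 ± 0.33, a difference of 2.64 ± 0.43. Cox6a2 gained 0.94 ± 0.21 while the common Cox6a1 changed by -1.20 ± 0.12, a difference of 2.14 ± 0.32. These pairs moved furthest apart. Cox4i2, the lung isoform of subunit IV, changed by 0.50 ± 0.081 and Cox4i1 by -0.51 ± 0.16, a difference of 1.002 ± 0.16. Cox8b, the heart and muscle isoform in rodents, changed by 0.27 ± 0.095 and Cox8a by -0.77 ± 0.44, a difference of 1.04 ± 0.44. On the deposited scale after the offset this difference was 1.64, with Cox8a at -1.28, and without the offset the change of Cox8b was 0.50. Cox4i2 and Cox8b were among the genes near the background of the round spermatid arrays, with Cox4i2 between 7.525 and 7.788 and Cox8b between 7.326 and 7.605 there. Cox6b2 and Cox7b2, known as testis isoforms, behaved otherwise. Cox6b2 was nearly level (-0.019 ± 0.059) while Cox6b1 changed by -0.38 ± 0.16, a difference of 0.36 ± 0.18. On the deposited scale after the offset Cox6b2 changed by 0.10 and Cox6b1 by -0.90, a difference of 0.997. Cox7b2 changed by -0.48 ± 0.13 while the X-linked Cox7b changed by 0.15 ± 0.14, so that here the testis isoform fell further in 12 of 12 rats (difference -0.62 ± 0.17). The direction of Cox7b itself depended on the scaling, with changes of -0.20, -0.26 and -0.32 under median centring, on the deposited scale and under centring on hybridization controls, and the pair difference was -0.10 (adjusted exact p = 0.366) on the deposited scale after the offset. The testis isoforms were bright in every group, at 13.9 to 14.1 for Cox6b2 and 13.79 to 14.66 for Cox7b2, where arrays respond less than in proportion, and the part of this in their small changes was not tested.

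**Figure D2:**
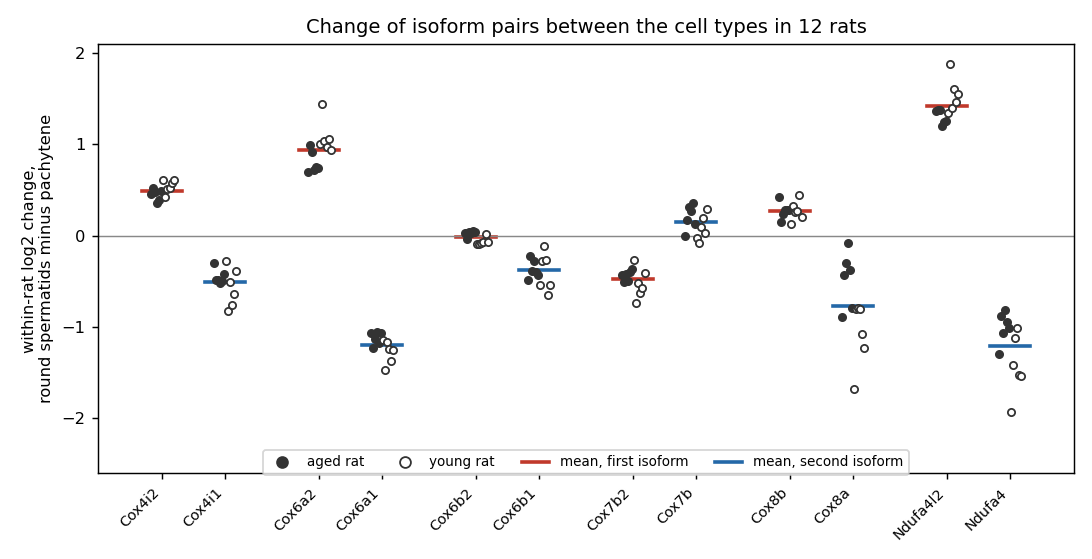
Change within each rat (y axis, log2 level in round spermatids minus that in pachytene spermatocytes) of both members of 6 isoform pairs, with filled points for 6 aged and open points for 6 young rats and lines for the mean of 12. In all pairs except Cox7b2 and Cox7b the first isoform lies above the second in 12 of 12 rats.

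In pachytene spermatocytes single genes differed with age, while the standing of the 87 genes as a group depended on the scaling. Their median change minus that of all genes was -0.0015 with quantile normalization and 0.23 under the other 3 scalings. Those 3 scalings differ by a constant per array, so they give 1 and the same value by construction. In aged against young pachytene spermatocytes 12 of the 87 were higher and 14 lower, while 25.6% of all genes were called higher and 19.1% lower. The count of higher genes was thus below the background share and that of lower genes close to it. The median change was 0.048 for the 87 genes and 0.049 for all genes. By complex, 3 genes were higher and 4 lower in complex I, 4 and 1 among its assembly factors, 2 and 0 in complex II, 1 and 1 in complex III, 1 and 4 in complex IV, and 1 and 4 in complex V. All 6 aged arrays lay above all 6 young ones for 12 genes and below them for 10, against 16.7% and 10% of all genes.

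The split between higher and lower depended on how arrays were scaled. It was 12 higher and 14 lower with quantile normalization, 62 and 7 with median centring, 2 and 26 on the deposited scale, and 13 and 12 with centring on hybridization controls. Of all 14217 genes, 5364 were called higher and 2385 lower with median centring. These counts were 953 and 7933 on the deposited scale and 1575 and 4161 on hybridization controls. The median of all probe sets shifted by -0.24 on the deposited scale, -0.12 on hybridization controls and 0.13 under median centring, and changes are best read relative to it. Only 2 higher genes (Ndufa9 and Ndufb2) and 7 lower genes (Cox7b, Cox8a, Ndufa1, Ndufa4, Ndufa5, Ndufaf4 and Ndufb11) were called under all 4 scalings. Young rats 1, 10 and 11 also weighed on the count. They were the 3 lowest young arrays for 11 of the 12 higher genes and the 3 highest for 6 of the 14 lower genes, and without them 3 genes were higher and 12 lower. Of all genes 2474 were then higher and 1815 lower, against 3633 and 2710 with these rats. Of the calls held under 4 scalings, those of Ndufa9, Ndufb2 and Ndufaf4 were lost without these rats and the calls of the other 6 lower genes were kept.

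**Figure D3:**
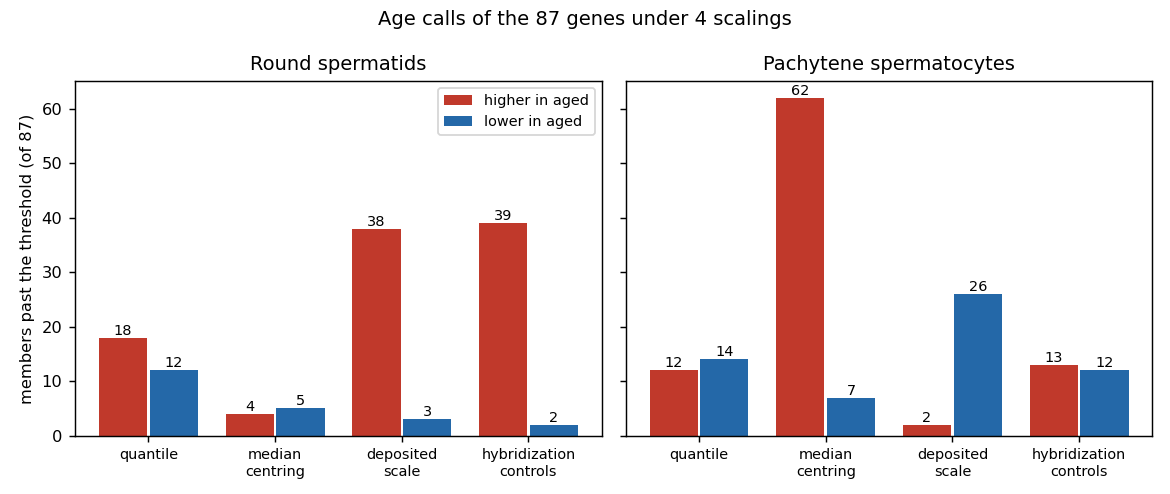
Number of the 87 genes called higher (red) or lower (blue) in aged than in young rats (y axis) under 4 scalings, for round spermatids and pachytene spermatocytes. Counts range from 2 to 62 higher and from 2 to 26 lower. Counts of all genes or probe sets moved with the scaling as well and are given in the text.

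Cox8a, the common isoform of subunit VIII of complex IV, was the gene furthest below in aged pachytene spermatocytes. Its levels were 9.995, 10.2 and 10.43 in aged and 10.77, 11 and 11.57 in young rats (lowest, median and highest of 6). No aged array reached the young range (change -0.89 ± 0.13, SE; 1.86-fold, adjusted p = 0.00065), and the change was -0.74 without young rats 1, 10 and 11. Ndufa5 had 10.6, 10.72 and 11.04 in aged and 11.05, 11.42 and 12.03 in young rats (-0.70 ± 0.17, 1.63-fold, adjusted p = 0.00646). Its groups met at the edge without overlap, and its change was -0.34 without those 3 rats. Ndufa4 had 9.92, 10.1 and 10.24 in aged and 10.5, 10.66 and 11.15 in young rats, again without overlap (-0.69 ± 0.11, 1.61-fold, adjusted p = 0.00101).

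The X-linked genes among the 87 were Ndufa1, Ndufb11 and Cox7b, and all 3 were lower in aged pachytene spermatocytes. Ndufa1, an accessory subunit of complex I, had 10.49, 10.66 and 10.8 in aged and 11.06, 11.16 and 11.67 in young rats (-0.66 ± 0.11, adjusted p = 0.00109). Ndufb11 had 10.16, 10.27 and 10.51 in aged and 10.65, 10.79 and 11.11 in young rats (-0.52 ± 0.085, adjusted p = 0.00108). Cox7b had 7.74, 7.921 and 8.062 in aged and 8.103, 8.301 and 8.756 in young rats (-0.47 ± 0.11, adjusted p = 0.00753). Aged and young arrays were separate for all 3. Earlier results of these data were known when the genes were chosen, and the X-linked genes were named after their values were seen. Whether the X chromosome as a whole was lower with age was not tested here, and these 3 genes are no evidence of it. The other lower genes included Atp5mf, the f subunit of ATP synthase (-0.41), the assembly factor Ndufaf4 (-0.41), Cyc1 (-0.34) and Ndufs3, a core subunit of complex I (-0.32).

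Among the higher genes no change exceeded 0.37, the value of Cox5a. Cox5a, a matrix subunit of complex IV, had 9.093, 9.156 and 9.711 in aged and 8.474, 8.975 and 9.146 in young rats (0.37 ± 0.14, adjusted p = 0.0488). Its call missed the threshold in 14 of 21 alternative settings. Ndufa9 had 12.35, 12.41 and 12.47 in aged and 11.65, 12.15 and 12.32 in young rats (0.33 ± 0.10, adjusted p = 0.0221), and its change was 0.13 without young rats 1, 10 and 11 (adjusted p = 0.0741). Sdhc, a membrane anchor of complex II, had 11.16, 11.28 and 11.41 in aged and 10.58, 11.05 and 11.24 in young rats (0.32 ± 0.11, adjusted p = 0.0413). Aged and young arrays overlapped for Cox5a and Sdhc and were apart for Ndufa9. Ndufaf5 and Ndufaf8 encode partner proteins in the hydroxylation of a complex I subunit during assembly. Ndufaf5 had 10.17, 10.24 and 10.28 in aged and 9.485, 9.988 and 10.17 in young rats (0.30 ± 0.096, adjusted p = 0.0291). Ndufaf8 had 10.66, 10.75 and 10.8 in aged and 10.36, 10.46 and 10.58 in young rats (0.28 ± 0.050, adjusted p = 0.00166). Both were apart from the young range, and the further assembly factors Ndufaf1 (0.23) and Ndufaf3 (0.20) were higher as well. Ndufb3 lay nearest the threshold among genes not called (0.22, adjusted p = 0.0669).

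In aged round spermatids the changes were smaller. Of the 87 genes, 18 were higher and 12 lower than in young round spermatids, while 12.4% of all genes were called higher and 12.5% lower. With quantile normalization the count of higher genes was above the background share and that of lower genes near it. The median change was 0.022 against -0.00091 for all genes. Complex IV had 6 higher and 3 lower, complex III 3 and 0, complex I 3 and 5, complex V 3 and 3, the assembly factors 2 and 1, and complex II 1 and 0. Aged arrays lay fully above the young ones for 7 genes and fully below for 5, against 6.37% and 5.35% of all genes. Here too the split moved with the scaling, to 4 higher and 5 lower with median centring, 38 and 3 on the deposited scale and 39 and 2 on hybridization controls. Counts of all 14217 genes moved too, to 1100 higher and 1212 lower with median centring and 7202 and 524 on the deposited scale. On hybridization controls 4785 genes were higher, and of 31042 probe sets 8289 were higher and 427 lower. The median of all probe sets shifted by 0.14 on the deposited scale and by 0.18 on hybridization controls. The median change of the 87 genes minus that of all genes was 0.023 with quantile normalization and 0.016 under the other 3 scalings. Without young rats 1, 10 and 11, 2 genes were higher and 2 lower. Calls among all 14217 genes fell as well, from 1763 higher and 1771 lower to 654 and 520, with fewer arrays. In round spermatids these rats were the 3 lowest young arrays for 4 of the 18 higher genes. They were the 3 highest for 1 of the 12 lower genes. Calls held under all 4 scalings for Atp5f1d and Sdhc (higher) and for Atp5mf and Ndufa5 (lower), and without the 3 rats that of Sdhc was lost.

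**Figure D4:**
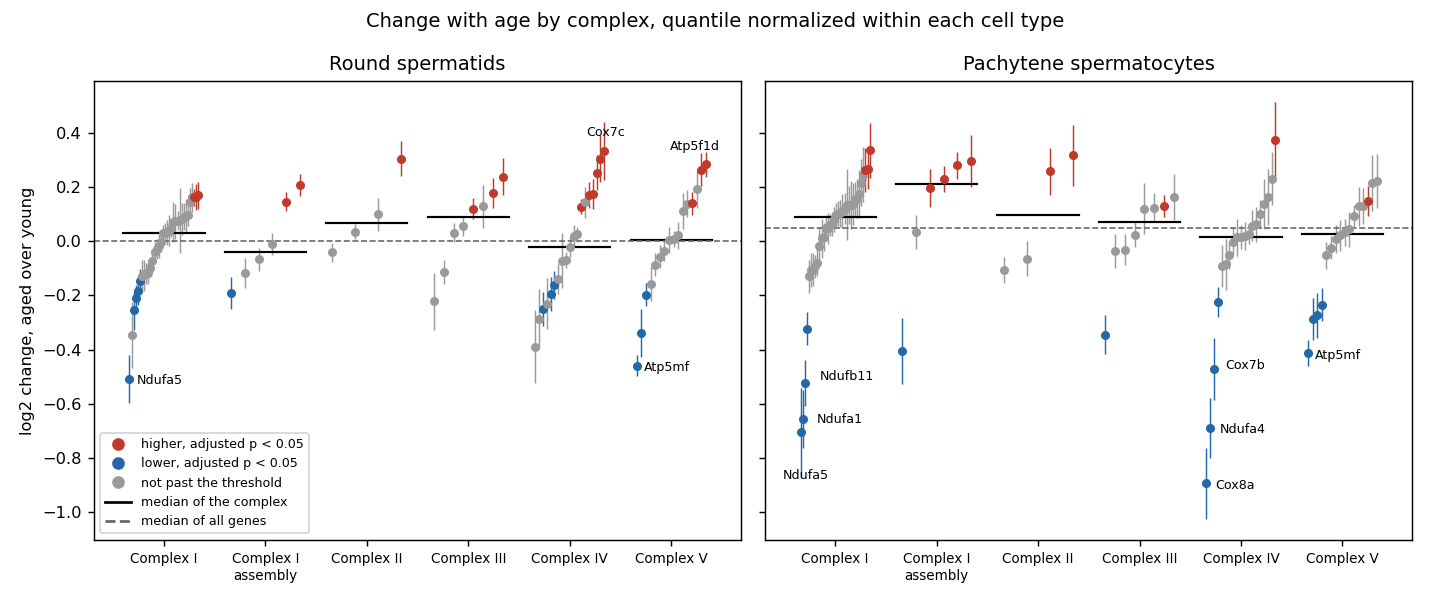
Change with age of the 87 genes (y axis, log2 level in aged minus young rats, bars are SE, quantile normalized within the cell type) by complex, for round spermatids on the left and pachytene spermatocytes on the right. Red and blue points passed the threshold. The medians of complexes I to V (black lines) stay near that of all genes (dashed). In pachytene spermatocytes the median of the 6 assembly factors (0.21) lies above that of all genes (0.049), and Cox8a (-0.89) and Ndufa5 (-0.70) lie furthest below.

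Ndufa5 was lower with age in round spermatids as well, with 11.58, 11.9 and 11.97 in aged and 12.06, 12.37 and 12.62 in young rats (-0.51 ± 0.088, 1.42-fold, adjusted p = 0.00298). Atp5mf had 11.97, 12.07 and 12.21 in aged and 12.45, 12.55 and 12.59 in young rats (-0.46 ± 0.039, 1.37-fold, adjusted p = 0.000521). Neither gene's aged arrays reached the young range, and the change of Atp5mf was -0.45 without young rats 1, 10 and 11. Atp5mk, also known as DAPIT, had 12.32, 12.6 and 12.68 in aged and 12.65, 12.91 and 13.24 in young rats (-0.34 ± 0.089, adjusted p = 0.019). Ndufa13, an accessory subunit of complex I, had 12.69, 12.78 and 12.92 in aged and 12.86, 13.03 and 13.36 in young rats (-0.25 ± 0.072, adjusted p = 0.0269). Cox6a2 had 8.092, 8.146 and 8.287 in aged and 8.262, 8.368 and 8.702 in young rats (-0.25 ± 0.064, adjusted p = 0.0167). These 3 genes overlapped between the ages at the edges of their ranges.

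Higher in aged round spermatids were Cox7c, with 10.95, 11.21 and 11.39 in aged and 10.46, 10.88 and 11.18 in young rats (0.33 ± 0.11, adjusted p = 0.0475), and Cox6c, with 12.49, 12.69 and 12.81 in aged and 12.06, 12.41 and 12.6 in young rats (0.30 ± 0.085, adjusted p = 0.0254). Their ranges overlapped. Sdhc had 9.63, 9.693 and 9.886 in aged and 9.255, 9.398 and 9.602 in young rats (0.30 ± 0.065, adjusted p = 0.00725). Atp5f1d, the delta subunit of the central stalk of ATP synthase, had 10.14, 10.23 and 10.37 in aged and 9.839, 9.949 and 10.06 in young rats (0.28 ± 0.047, 1.22-fold, adjusted p = 0.00256). Sdhc and Atp5f1d did not overlap between the ages, and the change of Atp5f1d was 0.21 without young rats 1, 10 and 11 (adjusted p = 0.0329). Atp5f1c had 12.01, 12.11 and 12.32 in aged and 11.78, 11.88 and 12.06 in young rats, with some overlap (0.26 ± 0.060, adjusted p = 0.00927). Cox5b (0.25), Uqcr10 (0.24), Ndufaf3 (0.21), Uqcrc2 (0.18) and Cox4i1 (0.17, adjusted p = 0.0488) followed, and Ndufs4 was the nearest gene not called (0.16, adjusted p = 0.0517).

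Called in both cell types were 10 genes. Atp5mf, Atp5mk, Atp5mpl, Ndufa5 and Ndufb11 were lower with age in both, as were 6.64% of all genes, so the share of the 87 was near the background. Atp5pf, Ndufaf3, Ndufaf5 and Sdhc were higher in both, against 8.18% of all genes, a share below the background. Of these 9 genes Ndufa5 was the one called in both cell types under all 4 scalings. Ndufb11 changed in round spermatids by 0.049 on the deposited scale and 0.089 on hybridization controls, against -0.21 with quantile normalization. Ndufaf8 was higher in aged pachytene spermatocytes and lower in aged round spermatids (0.732% of all genes), but its change in round spermatids was 0.067 and 0.11 on those 2 scales. Of the 87 genes, 41 were called in neither cell type, against 46.3% of all genes. Probe sets of a gene disagreed with age as well. The dimmer probe set of Sdhd was lower in aged pachytene spermatocytes (-0.31, adjusted p = 0.00232) and higher in aged round spermatids (0.15, adjusted p = 0.0258), while the chosen one gave -0.065 (adjusted p = 0.447) and 0.034 (adjusted p = 0.463). Dim second probe sets of Atp5po (0.31, adjusted p = 0.00229) and Ndufaf7 (0.34, adjusted p = 0.0162) were higher in aged pachytene spermatocytes, and their chosen probe sets were not called.

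**Figure D5:**
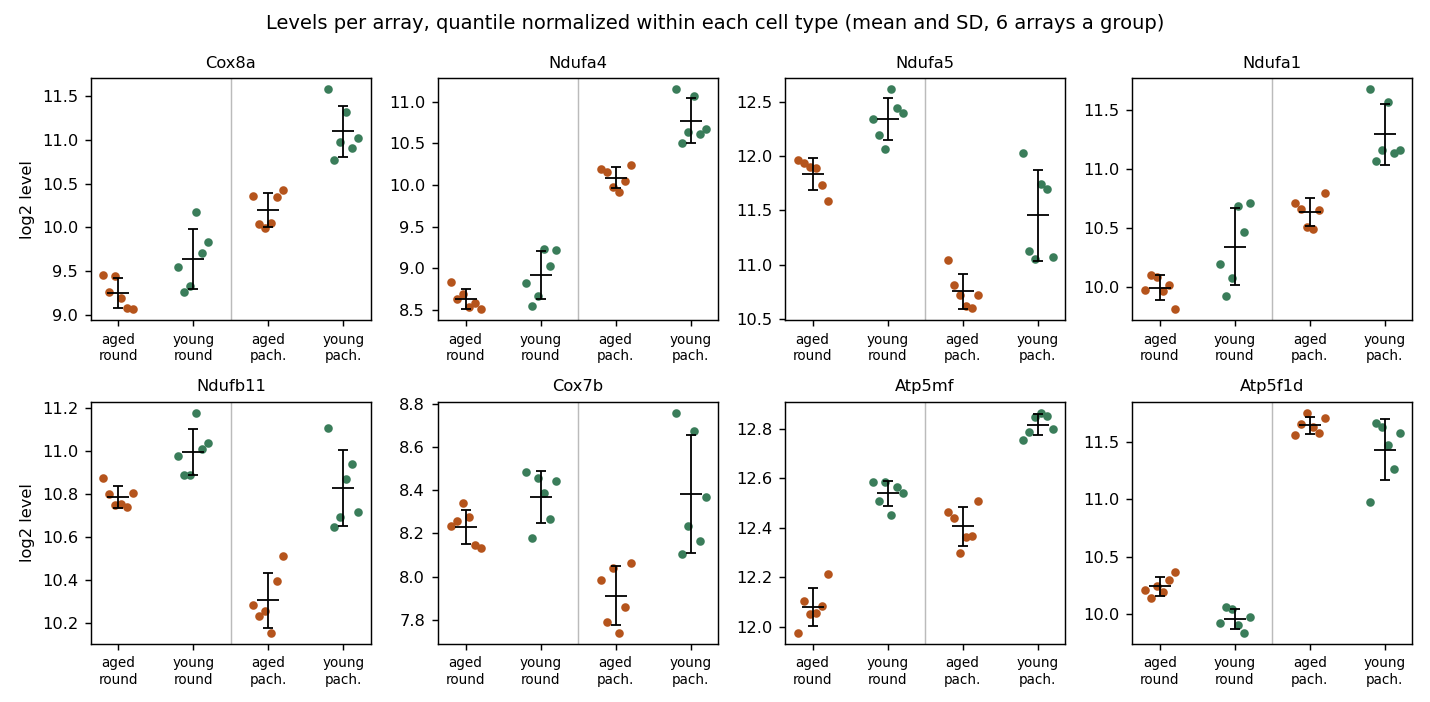
Levels of 8 genes on each array (y axis, log2 level, quantile normalized within the cell type; bars are the mean and SD of 6 arrays), for aged and young round spermatids and then aged and young pachytene spermatocytes. In pachytene spermatocytes the aged arrays lie below the young ones for Cox8a, Ndufa4, Ndufa5, Ndufa1, Ndufb11, Cox7b and Atp5mf, and in round spermatids they do so for Ndufa5, Ndufb11 and Atp5mf.

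Isoform balance also differed with age, and each pair's difference of changes was tested by an exact permutation of 6 against 6 arrays (two-sided, smallest possible p 0.00216, adjusted over 6 pairs). In pachytene spermatocytes 4 pairs differed, and in each the common partner was the member called lower. Ndufa4 was lower and Ndufa4l2 changed by 0.14 (adjusted p = 0.255 in the fit), a pair difference of 0.82 (exact p = 0.00216, adjusted 0.00433). Cox8a was lower and Cox8b changed by -0.092, a difference of 0.80 (exact p = 0.00216, adjusted 0.00433). Cox7b was lower and Cox7b2 changed by 0.058, a difference of 0.53 (exact p = 0.00433, adjusted 0.00649), which was 0.29 without young rats 1, 10 and 11 (adjusted exact p = 0.0571) and 0.94 on the deposited scale (adjusted exact p = 0.00433). Cox6b1 was lower (-0.23) and Cox6b2 changed by 0.027, a difference of 0.25 (exact p = 0.00216, adjusted 0.00433), which was 0.43 on the deposited scale (adjusted exact p = 0.00433). The pairs of Cox4i2 (-0.048, exact p = 0.639) and Cox6a2 (-0.084, exact p = 0.574) did not pass, and on the deposited scale they gave -0.34 (adjusted exact p = 0.0649) and -0.39 (adjusted exact p = 0.0714). In aged round spermatids the testis isoforms gained on their partners, by 0.36 for Cox6b2 (exact p = 0.00866, adjusted 0.0162) and 0.28 for Cox7b2 (exact p = 0.0108, adjusted 0.0162). The muscle isoform Cox6a2 and the lung isoform Cox4i2 lost against theirs, by -0.42 (exact p = 0.00649, adjusted 0.0162) and -0.25 (exact p = 0.00433, adjusted 0.0162). Each of these 4 calls missed the threshold without young rats 1, 10 and 11. On the deposited scale Cox6a2 kept its call (-0.50, adjusted exact p = 0.026), while Cox6b2 (0.085, adjusted exact p = 0.221), Cox7b2 (0.14, adjusted exact p = 0.221) and Cox4i2 (-0.20, adjusted exact p = 0.156) missed it. The part of the brightness of the testis isoforms in these differences was not tested. The pairs of Cox8b (0.37, exact p = 0.0519) and Ndufa4l2 (0.12, exact p = 0.271) did not pass in round spermatids.

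The age effect itself differed between the cell types for 8 of the 87 genes. It was higher in round spermatids than in pachytene spermatocytes for 3 genes and lower for 5, while 7.34% of all genes were called higher and 8.9% lower. Ndufs3 (0.39 ± 0.079, adjusted p = 0.00314) and Ndufb11 (0.37 ± 0.10, adjusted p = 0.0185) were called under all 4 scalings, and without young rats 1, 10 and 11 their differences were 0.28 (adjusted p = 0.0696) and 0.27 (adjusted p = 0.0607). Ndufaf8 had the largest negative difference (-0.47 ± 0.069, adjusted p = 0.000378), followed by Ndufs8, an iron-sulphur subunit of complex I (-0.40 ± 0.084, adjusted p = 0.00367). None of the 5 negative differences was called under all 4 scalings. On the deposited scale and on hybridization controls, however, the medians of all genes were shifted to 0.29 and 0.22. There 19 of 14217 genes were called lower on each scale, and 10823 and 4587 higher. Holding under all 4 scalings thus favoured positive differences and says little about the negative ones. Cox8a (0.59 ± 0.20, adjusted p = 0.0582) and Cox6a2 (-0.27 ± 0.092, adjusted p = 0.0515) lay just outside the threshold, so an age effect on Cox8a in pachytene spermatocytes alone was not shown. The dimmer probe set of Sdhd differed by 0.45 (adjusted p = 0.000378), against 0.10 (adjusted p = 0.352) for the chosen one.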

How the data were processed

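The deposited values are log2 signals of 31099 probe sets on 24 arrays, with the summarising software not given in the sources used here. Collagenase and trypsin digestion, a sedimentation gradient, RNA extraction by Qiagen kit and biotin labelling of cRNA are recorded per the labels' protocols. Replicates are separate rats, and the labels name no batch. The number of arrays limits the precision.

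After 57 control probe sets were left out, 31042 were tested with limma 3.58.1 (lmFit and eBayes, R 4.3.3), with Benjamini-Hochberg adjustment and a threshold of 0.05. Age was tested within each cell type after quantile normalization. The 2 cell types, and the difference of age effects between them, were tested on all arrays after an offset of 90.29 was added to the linear pachytene values and the arrays were quantile normalized together. The offset was fitted to 45 bacterial and phage control probe sets, whose difference between round spermatids and pachytene spermatocytes was 0.61 ± 0.77 before and -0.027 ± 0.17 after it (SD over control probe sets). A cell type difference still holds any processing effect that these controls do not carry. Probe sets were named by the platform annotation, 20826 with 1 symbol, 436 with several and 9780 with none, and all 87 gene identifiers matched RefSeq's gene table.

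Fractions of the same rat were paired by the number in the labels. Deviations of a rat's own fractions from their group means correlated at -0.0476 to 0.395. For 2 of 12 rats the other fraction of the same animal correlated best among the rats of its age. The pairing thus rests on the labels. The genes, lists, pairs and tests were chosen with earlier results of these data known. Genes named in a comparison are the 10 largest called changes in each direction (5 for the difference of age effects), the members of isoform pairs and the genes nearest the threshold, and array values are given for the 5 largest. X-linked genes, genes called in both cell types or under all scalings, and genes with disagreeing probe sets were named after their values were seen. The NRF1 and YY1 cores are shorter by 1 base than forms counted first, and only the counts of the shorter forms are given here. The fits were tested on simulated data. Alternatives were other scalings, filters, probe set rules, eBayes with trend and robust, blocks, no offset, each age alone and leaving out rats.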

Additional observations from a re-analysis of the deposited data

Results flagged for a closer look

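Arrays of 32 named genes were looked at in 128 groups of 6, of which chance marks about 1 in 20, and 4 held an array far from the others. Atp5mk was lowest in aged rat 10 in round spermatids (12.32, next 12.57). Cox5a was highest in aged rat 10 in pachytene spermatocytes (9.711, next 9.247). Cox6c was lowest in young rat 1 in pachytene spermatocytes (13.5, next 13.72). Ndufaf1 was lowest in young rat 13 in round spermatids (9.294, next 9.467).

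The age effect in round spermatids minus that in pachytene spermatocytes passed the limma threshold for 8 genes. It was 0.39 for Ndufs3 (adjusted p = 0.00314), 0.37 for Ndufb11 (0.0185) and 0.092 for Cox6b2 (0.0425). Negative values were -0.47 for Ndufaf8 (adjusted p = 0.000378), -0.40 for Ndufs8 (0.00367), -0.35 for Ndufv3 (0.0371), -0.23 for Ndufa4l2 (0.0449) and -0.23 for Ndufaf1 (0.00442).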

How the results depend on the processing

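The counts between cell types stayed between 13 and 19 higher and 61 and 68 lower under every alternative run, and the median of the 87 genes minus that of all genes was -0.47 in place of -0.58 under median centring, on the deposited scale and on hybridization controls. These 3 scalings differ by a constant per array, so this value is the same in all 3 by construction. The rat as a replicate block gave 18 higher and 64 lower genes between cell types and 3 and 4 for the difference of age effects, and without the block every isoform pair kept its call between cell types. Age counts in aged pachytene spermatocytes were 62 higher and 7 lower under median centring, 2 and 26 on the deposited scale and 3 higher without young rats 1, 10 and 11. The median of the 87 genes minus that of all genes there was 0.23 under the other 3 scalings, again the same by construction, against -0.0015 with quantile normalization. In aged round spermatids they were 4 and 5 (median centring), 38 and 3 (deposited scale), 39 and 2 (hybridization controls), 11 and 7 (eBayes with trend and robust) and 2 and 2 (without young rats 1, 10 and 11). Counts of all genes or probe sets under the scalings and without these rats moved as well and are given with the age results above. With eBayes with trend and robust, 1649 of all genes were higher and 1679 lower in aged round spermatids. The shared replicate numbers of young and aged rats belong to different animals. As a replicate block this number left 0 and 0 calls among the 87 in both cell types. Of all genes 2 were then higher and 211 lower in pachytene spermatocytes, and 0 and 0 in round spermatids. The difference of age effects gave 5 higher and 15 lower (median centring), 43 and 0 (deposited scale), 18 and 0 (hybridization controls), 7 and 9 (mean of a gene's probe sets), 8 lower (without the 40% dimmest probe sets) and 1 and 3 (without young rats 1, 10 and 11). Of all 14217 genes, 1658 were higher and 2732 lower for this difference under median centring. These counts were 10823 and 19 on the deposited scale and 4587 and 19 on hybridization controls. They were 1115 and 1369 with the mean of a gene's probe sets and 758 and 813 without young rats 1, 10 and 11. Without the 40% dimmest probe sets, 1047 of 10936 genes were higher and 1318 lower. Leaving out each rat in turn gave 5 to 15 higher and 13 to 15 lower in pachytene spermatocytes, 8 to 21 and 6 to 23 in round spermatids, and 1 to 5 and 3 to 11 for the difference. Counts of all genes then ran from 2738 to 3835 higher and 2151 to 3017 lower in pachytene spermatocytes. They ran from 1219 to 2131 and 1227 to 2200 in round spermatids, and from 562 to 1330 and 732 to 1488 for the difference. Calls held in every such run for 5 of 12 higher and 13 of 14 lower genes in pachytene spermatocytes. They held for 8 of 18 and 6 of 12 in round spermatids, and for 1 of 3 and 3 of 5 for the difference.

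Signs turned between cell types for Cox7b (-0.20, -0.26 and -0.32 under median centring, on the deposited scale and on hybridization controls). In aged pachytene spermatocytes Ndufaf1 turned (-0.14 and -0.026 on the deposited scale and on hybridization controls). In aged round spermatids, on those same scales, Cox7a2l gave 0.062 and 0.10, Ndufa4l2 0.081 and 0.12, Ndufaf8 0.067 and 0.11, Ndufb11 0.049 and 0.089 and Ndufv3 0.085 and 0.12, and Cox6b2 gave -0.025 under median centring. For the difference, Ndufa4l2 gave 0.31 and 0.24, Ndufaf1 0.28 and 0.21, Ndufv3 0.041 (deposited scale), and Cox6b2 -0.28 (median centring) and -0.0022 (hybridization controls). Isoform differences that missed the threshold in exact tests were, between cell types, Cox7b2 -0.10 (adjusted p = 0.366, deposited scale), in pachytene spermatocytes Cox7b2 0.29 (0.0571, without young rats 1, 10 and 11), and in round spermatids, on the deposited scale, Cox4i2 -0.20 (0.156), Cox6b2 0.085 (0.221) and Cox7b2 0.14 (0.221), and, without young rats 1, 10 and 11, Cox4i2 -0.18, Cox6a2 -0.25, Cox6b2 0.21 and Cox7b2 0.19 (0.179 each). The cause of these changes was not tested.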

Other observations

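Genes that work around the respiratory chain were described from lists of measured genes, with the same background shares and medians of all genes as above. Of 41 other assembly factors, 21 were lower and 15 higher in round spermatids (median -0.076). Tmem126b, a complex I assembly factor, changed by -2.48 and Surf1, a complex IV assembly factor, by -0.98, while Coa5 (2.60) and Atpaf1, which assembles the head of ATP synthase (1.93), were higher. Of 11 carriers, channels and mitochondrial creatine kinases, 8 were lower and 3 higher (median -0.84). The adenine nucleotide carriers Slc25a5 (-1.48), Slc25a4 (-1.29) and the germ cell form Slc25a31 (-1.09) were all lower in round spermatids. Of 16 genes of pyruvate dehydrogenase and the citric acid cycle, 8 were lower and 7 higher (median -0.16), with Pdhb (-2.39) and citrate synthase Cs (-0.88) lower and Idh3g (0.86) higher. Pdha2, the testis form of the pyruvate dehydrogenase alpha subunit, was lower (-0.78) and Pdha1 higher (0.25). Of 19 genes of mitochondrial biogenesis, 8 were lower and 7 higher (median -0.033), with both GABP subunit genes Gabpa (-1.27) and Gabpb1 (-1.30) and Nrf1 (-0.32) lower and Tfam, which packages and transcribes mitochondrial DNA, higher (0.69).

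With age in pachytene spermatocytes, 5 of the 11 genes of the carrier list were lower and 0 higher (median -0.0050), with Slc25a5 at -1.30 ± 0.16 (SE), Slc25a4 at -1.13 ± 0.15 and Vdac1 at -0.91 ± 0.20. In round spermatids 1 was lower (Slc25a5, -0.35) and 4 were higher (median 0.0051), among them Slc25a31 (0.30). The age effect differed between the cell types for 5 of the 11, and it was higher in round spermatids for Slc25a5 (1.07 ± 0.22, adjusted p = 0.00328) and Slc25a4 (0.92 ± 0.20, adjusted p = 0.00442). Of the 19 biogenesis genes 10 were higher and 5 lower in aged pachytene spermatocytes (median 0.25), with Polrmt (0.47) and Twnk (0.64), which transcribe and unwind mitochondrial DNA, higher and Ppargc1b (-1.10) and Tfam (-0.36) lower. In aged round spermatids 1 of them was higher (Polg, 0.41) and 4 lower (median 0.017). Of the assembly factors 12 were higher and 8 lower in aged pachytene spermatocytes and 5 and 6 in aged round spermatids, and of the citric acid cycle list 4 and 4, and 5 and 2. These counts are for the quantile normalized arrays, and the genes named in these lists were picked after their values were seen.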
